A study of Homo sapiens with 12 samples.

Results

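The interferon receptor chains are the 6 cell surface proteins that bind type I, type II and type III interferons, and their genes were taken as the rows of the deposited gene table whose symbol is IFNAR1, IFNAR2, IFNGR1, IFNGR2, IFNLR1 or IL10RB. These are 6 of the 60099 genes in the table, and all 6 had enough reads to be tested among 19944 genes. The samples were Cal27 and HN30 cells, established lines of head and neck squamous cell carcinoma (HNSCC), left untreated or given 20 or 200 ng/ml IFNα for 24 h. IFNα is itself a type I interferon, so the treatment was a ligand of the pair IFNAR1 and IFNAR2. The 12 samples carry the letters A to F with replicate 1 or 2. The controls are A and D, the low dose of 20 ng/ml is B and E, and the high dose of 200 ng/ml is C and F. The doses come from the description of the design, since the sample titles give only control, low and high. Each dose occurs once among the letters A, B and C and once among D, E and F, which are called line sets A-C and D-F here. The labels do not say which set is which line. Nothing in the labels says that replicates were separate cultures, so p-values measure the spread between these samples, which may be technical, and each line set stands for a single line.

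Each interferon receptor joins a pair of different chains, and each chain holds a Janus kinase on its inner side. Type I interferons bind IFNAR2, which carries JAK1, and IFNAR1, which carries TYK2. The type II interferon IFNγ binds IFNGR1, which carries JAK1 and does most of the ligand binding, and brings in IFNGR2 with JAK2. Type III interferons bind IFNLR1, the chain that limits this response largely to epithelial cells, together with IL10RB, which is shared with the receptors for IL-10 and IL-22. The kinases then phosphorylate factors such as STAT2, which acts with IRF9 on antiviral genes.

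Libraries held 10517448 to 16056734 estimated counts, and each member had at least 53 of them in every sample. Log2 counts correlated at 0.94 to 0.98 between samples of a line set (30 pairs) and at 0.68 to 0.72 between line sets (36 pairs) over 13033 genes. The interferon-stimulated genes MX1, IFIT1, OAS1 and IFI6 all rose with treatment, by 4.01 to 4.89 on the log2 scale at 200 ng/ml. All 7 squamous epithelial markers were tested, but KRT14, a basal keratin, was at 0 counts in D and E and at 2 to 3 in F, against 494 to 730 in A-C. The leukocyte markers PTPRC and CD3E had 0 to 2 counts, while CD68, also made by other cells, had 84 to 475 and rose by 1.77 on the log2 scale at 200 ng/ml (edgeR adjusted p 4.33e-05). The summed TPM of these 3 genes was 5.34 to 10.2 in controls and 17.4 to 39.6 at 200 ng/ml, nearly all of it CD68. The endothelial markers PECAM1 and VWF had 0 to 16 counts, the fibroblast marker DCN 0 to 3, COL1A2 8 to 53 and COL1A1 113 to 293.

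IFNAR2, IL10RB, IFNAR1 and IFNGR2 lie close together on chromosome 21 and on the same strand, in the order IFNAR2 (at chr21:33229901-33265675), IL10RB (chr21:33266358-33310187), IFNAR1 (chr21:33324477-33359862) and IFNGR2 (chr21:33402896-33479348), by the deposited GRCh38 positions. IFNGR1 lies on the minus strand at chr6:137197484-137219449, and IFNLR1 on the minus strand at chr1:24154157-24187959. The deposited transcript table holds 35 transcripts of the 6 genes, all at the position that GENCODE release 29 gives them.

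The transcripts of IFNAR2 are shown first because their last junction decides which receptor is made. In the lines below, small letters are the last 30 bases of the upstream exon and capitals the first 30 bases of the exon joined to it, from the GENCODE 29 transcripts, 5′ to 3′ on the plus strand. IFNAR2-202 codes for the long, signalling chain of 515 codons and joins the exon at chr21:33260597-33260727 to the one at 33262793. IFNAR2-204 and IFNAR2-205 join the same exon to 33262561 instead, and give a short transmembrane chain of 331 codons that lacks most of the inner part. IFNAR2-201 skips the exon at 33260597-33260727 and codes for a soluble chain of 239 codons, whose reading frame ends within the capitals.
IFNAR2-202: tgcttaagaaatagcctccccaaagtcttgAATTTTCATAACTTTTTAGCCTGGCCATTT
IFNAR2-204 and IFNAR2-205: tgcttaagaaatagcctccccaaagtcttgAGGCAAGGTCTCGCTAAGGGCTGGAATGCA
IFNAR2-201: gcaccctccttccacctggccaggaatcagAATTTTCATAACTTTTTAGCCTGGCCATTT

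The next pair shows how the coding transcript of IL10RB differs from the one that took most of its reads. In IL10RB-201, the coding transcript of 325 codons, exon 1 (small letters, ending at 33266514) is spliced to exon 2 (capitals, from 33268394). IL10RB-204, annotated as a retained intron, starts inside intron 1 at 33267928 and runs from the intron (small letters) straight into the same exon 2.
IL10RB-201: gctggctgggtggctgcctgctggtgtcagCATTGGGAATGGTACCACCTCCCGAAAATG
IL10RB-204: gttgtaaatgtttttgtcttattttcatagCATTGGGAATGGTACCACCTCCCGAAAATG

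IFNGR2-202 differs from IFNGR2-201 by an extra coding exon of 57 bases at chr21:33410836-33410892, which adds 19 codons (356 against 337). It is printed in capitals between 15 bases of each neighbouring exon.
IFNGR2-202: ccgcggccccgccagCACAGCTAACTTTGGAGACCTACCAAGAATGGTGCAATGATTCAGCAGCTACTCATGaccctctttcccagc

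In untreated cells, the order of the chains by level differed between the line sets. Levels between genes are compared here in TPM, which the authors scaled for length and depth. In A the order was IFNGR1 at 91.4 ± 9.83 TPM (mean ± SD, n = 2), IFNGR2 at 51.4 ± 0.947, IFNAR1 at 22.4 ± 0.904, IFNAR2 at 21.4 ± 0.576, IL10RB at 18.6 ± 2.60 and IFNLR1 at 4.03 ± 0.853. Only the neighbours IFNAR1 and IFNAR2 overlapped between their samples in this order. In D the order was IFNGR2 at 48.7 ± 2.90 TPM, IL10RB at 35.2 ± 5.92, IFNGR1 at 22.0 ± 2.28, IFNAR2 at 19.99 ± 1.72, IFNAR1 at 17.1 ± 0.712 and IFNLR1 at 6.63 ± 0.556. Here IFNGR1 and IFNAR2 overlapped and the other neighbours did not. These levels hold all transcripts of a gene, and the order would differ for coding transcripts. IL10RB-201 was at 3.77 and 4.54 TPM in A1 and A2 and at 8.30 and 19.9 in D1 and D2. IFNGR1-201 was at 23.0 and 19.2 TPM in D1 and D2. Among the tested genes, the mean TPM of IFNGR1 was at the 92.8 percentile in A and at the 65.9 percentile in D, and IFNLR1 was at the 35.8 and 40.6 percentiles.

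**Figure D1:**
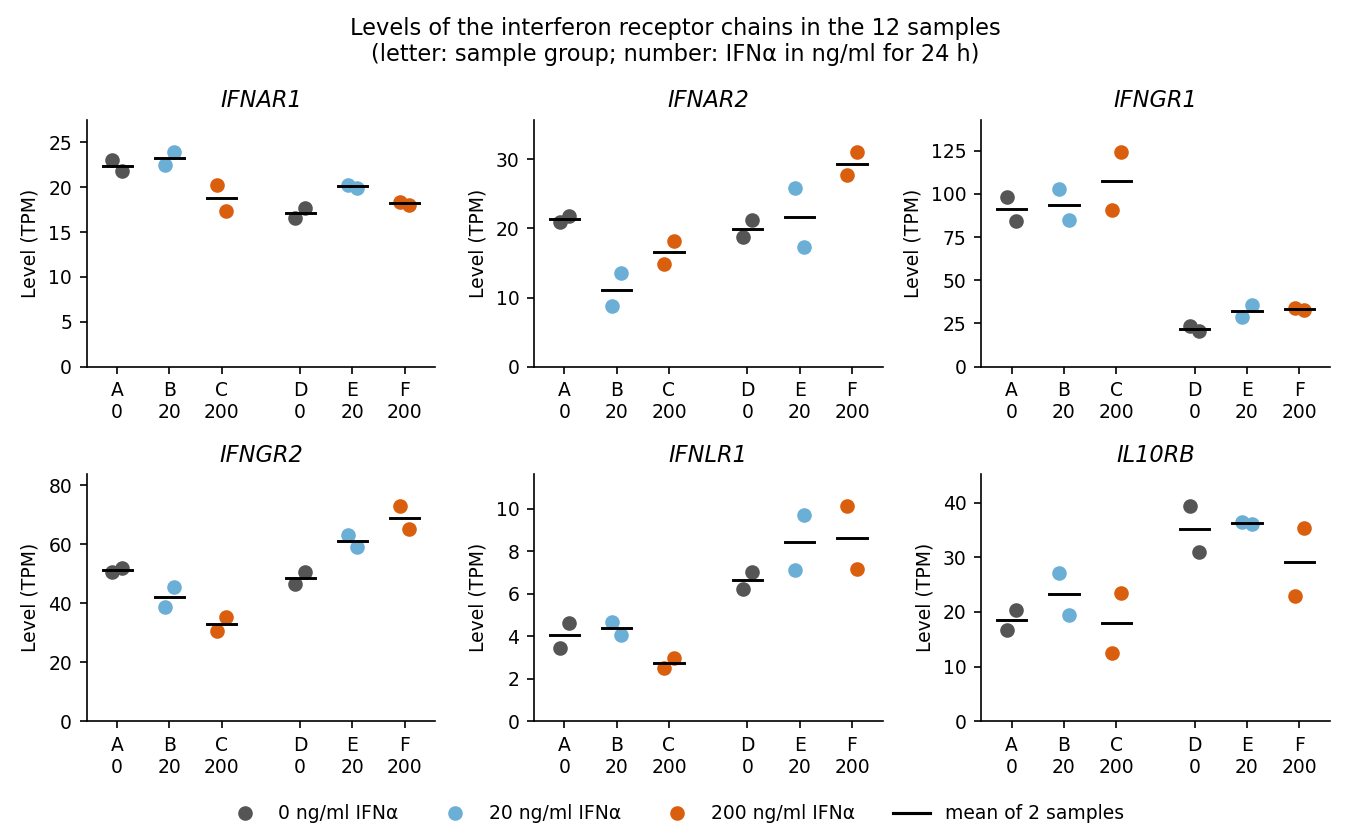
Deposited level (TPM, linear axes from 0) of each receptor chain in every sample, with the letter and the IFNα dose (ng/ml) below; points are single samples and bars the mean of 2. IFNGR1 spans 84.4 to 124 TPM in A-C against 20.4 to 35.9 in D-F, and IFNGR2 is at 50.7 and 52.0 in A, 30.7 and 35.4 in C, 46.7 and 50.7 in D, and 72.9 and 65.1 in F.

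IFNGR1, the binding chain for IFNγ, was the member that differed most between the line sets. Its level was 98.3 and 84.4 TPM in A1 and A2, 103 and 84.7 in B1 and B2, and 90.6 and 124 in C1 and C2. In the other set it was 23.6 and 20.4 TPM in D1 and D2, 28.98 and 35.9 in E1 and E2, and 33.8 and 32.8 in F1 and F2. Every sample of A-C therefore lay above every sample of D-F, a separation that was not counted over all genes. Untreated D was lower than untreated A by 4.51-fold (log2 fold change -2.17, SE 0.18, 95% confidence interval -2.57 to -1.77, edgeR adjusted p 1.05e-05). For its partner IFNGR2 the log2 fold change between untreated D and A was -0.14 (95% confidence interval -0.40 to 0.12, adjusted p 0.356). The ratio of IFNGR1 to IFNGR2 in TPM was 1.62 to 3.51 in the samples of A-C and 0.402 to 0.608 in those of D-F. In bulk samples such as these, fewer cells that make a transcript and less of it per cell cannot be told apart.

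IFNAR1, the TYK2-carrying chain for type I interferons, was also lower in untreated D. It was at 23.1 and 21.8 TPM in A1 and A2 and at 16.6 and 17.6 in D1 and D2. These samples did not overlap, a separation that was not counted over all genes. The log2 fold change was -0.52 (SE 0.10, 95% confidence interval -0.74 to -0.29, edgeR adjusted p 0.00226). IFNAR2 was at 21.003 and 21.8 TPM in A and at 18.8 and 21.2 in D, with a log2 fold change of 0.06 (95% confidence interval -0.51 to 0.63, adjusted p 0.875) that turned to -0.10 with limma on TPM.

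For the type III receptor, IL10RB was at 16.7 and 20.4 TPM in A1 and A2 and at 39.4 and 31.0 in D1 and D2. Its log2 fold change of 0.84 between untreated D and A did not pass (95% confidence interval 0.10 to 1.59, adjusted p 0.0624 with edgeR). It did pass with DESeq2 (0.85, adjusted p 0.0293), with limma on TPM (0.92, adjusted p 0.0449) and when A and D were fitted alone (0.84, adjusted p 0.0120). IFNLR1 was at 3.43 and 4.64 TPM in A and at 6.24 and 7.03 in D, with a log2 fold change of 0.42 (95% confidence interval -0.08 to 0.92, adjusted p 0.152).

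In all, 2 of the 6 members passed the test between the untreated line sets (edgeR quasi-likelihood test, adjusted p at most 0.05), where 46.4% of all tested genes passed. At an unadjusted p under 0.05 there were 3 of 6 members and 53.2% of all genes. Both were lower in D, and 1 of them, IFNGR1, differed by at least 2-fold, as did 26.6% of all genes. The median log2 fold change of the members was -0.04, against 0.01 over all tested genes. Of the 7 squamous markers, 5 were also lower in untreated D, with a summed TPM of 868 to 923 against 2070 to 2184 in A, and their part in the members' differences was not tested.

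The genes around the chromosome 21 members were described in the same fits. Within 500 kb of the span of these 4 members, 13 other genes of 36 in the table were tested. Of these 13, 5 passed between untreated D and A, where 46.4% of all tested genes passed. All 5 were lower in D by edgeR, namely TMEM50B (log2 fold change -0.59), GART (-0.56), DONSON (-0.34), ITSN1 (-0.28) and SON (-0.23). In TPM SON was not lower in D, with 146 to 173 in the samples of D-F and 123 to 148 in those of A-C. Under other settings of all samples the count was 1 to 5, with 4 by DESeq2, 2 by limma on TPM and 1 with A and D fitted alone. Over the 13 neighbours the median log2 fold change was -0.23, with 5 above 0 and 8 below. IFNAR1 lay below that median, while IL10RB lay at 0.84. At 200 ng/ml, averaged over both line sets, 0 of the 13 neighbours passed with edgeR, DESeq2 or limma, where 9.55% of all genes passed with edgeR. There 1 neighbour and 23.9% of all genes had an unadjusted p under 0.05 with edgeR. Within D-F, 0 neighbours passed with edgeR, where 5.84% of all genes did, and DESeq2 passed 1. With edgeR 3 neighbours and 18.7% of all genes had an unadjusted p under 0.05 in D-F. No difference between members and neighbours was tested.

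**Figure D2:**
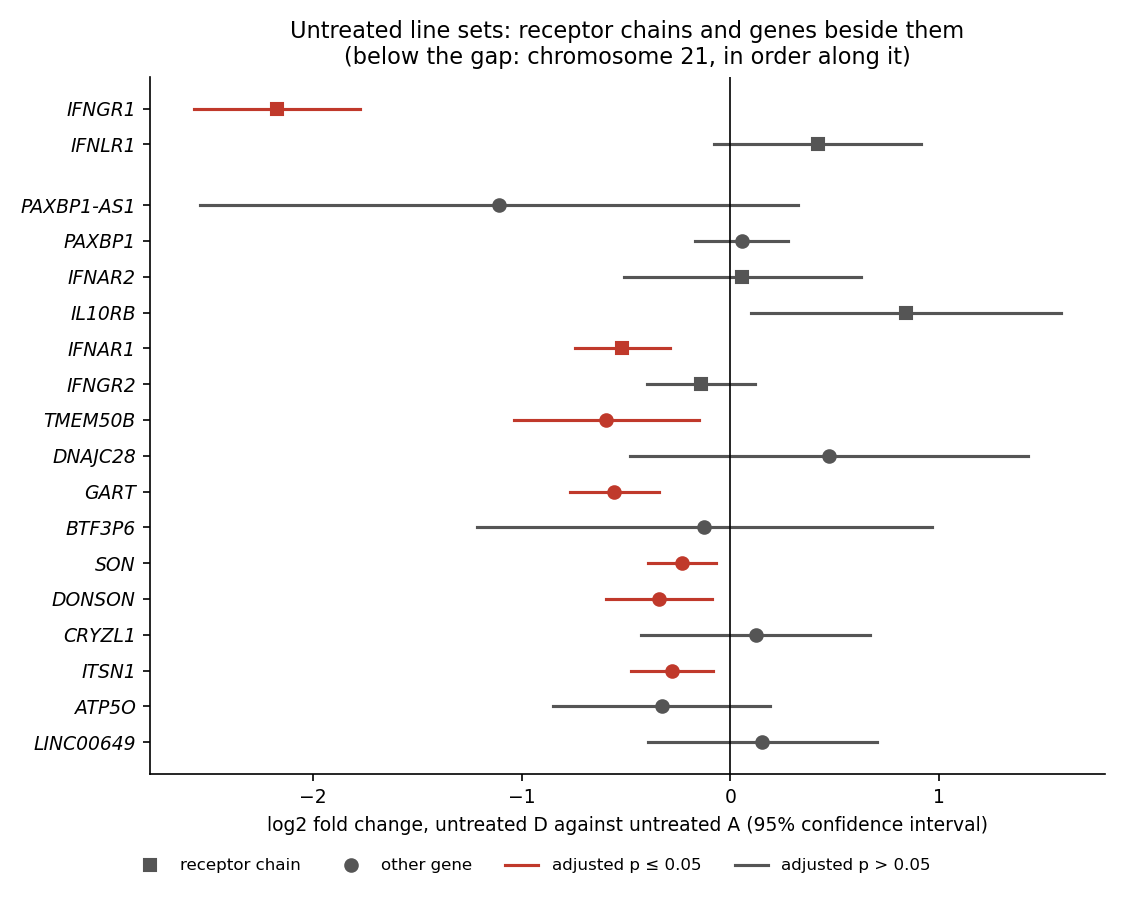
Log2 fold change of untreated D against untreated A (points) with 95% confidence intervals (lines), for the 6 receptor chains (squares) and the tested genes around the chromosome 21 members (circles), red where the adjusted p is at most 0.05. IFNGR1 is at -2.17 and IFNAR1 at -0.52, and a readthrough gene with at most 1 count in A is left out.

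At 200 ng/ml IFNα, averaged over both line sets, 0 of the 6 chains passed with edgeR at an adjusted p of at most 0.05, where 9.55% of all tested genes passed. At an unadjusted p under 0.05, 1 member passed, as did 23.9% of all genes. That member was IFNGR1, with a log2 fold change of 0.39 (SE 0.12, 95% confidence interval 0.11 to 0.66, p 0.0104, adjusted p 0.0819), and DESeq2 passed it (0.40, adjusted p 0.0334) while limma on TPM passed 0 of 6. For the ligand's own receptor, the log2 fold changes were -0.11 for IFNAR1 (95% confidence interval -0.27 to 0.05) and 0.10 for IFNAR2 (-0.31 to 0.50). They were -0.14 for IFNGR2 (-0.33 to 0.04), -0.22 for IFNLR1 (-0.58 to 0.14) and -0.20 for IL10RB (-0.73 to 0.33). None of these intervals reaches a 2-fold change, though a p that misses the threshold does not show that a level was the same. The members' median was -0.13, against -0.01 over all genes. The mean for IFNAR2 joins line sets that moved apart in TPM. IFNAR2 was at 14.9 and 18.1 TPM in C, both below A, and at 27.7 and 31.1 in F, both above D. In TMM-scaled CPM both C and F overlapped their controls. Under alternative settings its log2 fold change was -0.38 to -0.027 in A-C and -0.064 to 0.55 in D-F. The difference between line sets was 0.0028 to 0.93 and did not pass with edgeR, DESeq2 or limma.

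The comparison at 20 ng/ml shares its controls with that at 200 ng/ml. At 20 ng/ml, 0 of the 6 members passed with edgeR, DESeq2 or limma, where 3.93% of all genes passed with edgeR. At an unadjusted p under 0.05 edgeR gave 16.8% of all genes and 1 member, IFNAR2, with a log2 fold change of -0.43 (95% confidence interval -0.83 to -0.02, adjusted p 0.270). Its level was 8.82 TPM in B1 and 13.5 in B2, both below the 21.003 and 21.8 TPM of A1 and A2, while 25.9 in E1 and 17.4 in E2 lay on either side of D. B1 had 155 estimated counts of IFNAR2, against 297 to 580 in the other samples, and the log2 fold change was -0.25 without B1 and -0.67 without B2. Between 200 and 20 ng/ml the fit again passed 0 of 6 members by all 3 tools, where 0.135% of genes passed with edgeR. In that comparison edgeR gave 3 members and 9.26% of all genes at an unadjusted p under 0.05, the members being IFNAR2 (0.52, adjusted p 0.416), IFNAR1 (-0.19) and IFNGR2 (-0.19).

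Of the 6 kinases and factors described here, 3 rose at 200 ng/ml and 0 fell, where 9.55% of all tested genes passed. Their median log2 fold change was 0.36. The 3 that rose were IRF9 (2.69, edgeR adjusted p 1.03e-06), STAT2 (1.80) and JAK2 (0.50, adjusted p 0.0123), the kinase held by IFNGR2. The call on JAK2 was lost with limma on TPM (adjusted p 0.156), without the line set in the fit (0.631) and without D2 or F1. STAT3, a factor shared with the receptors for IL-6 and IL-10, was at 0.22 (adjusted p 0.0519) and passed with DESeq2 (adjusted p 0.0211). JAK1, held by IFNAR2, IFNGR1 and IFNLR1, was at 0.02 (adjusted p 0.855), and TYK2, held by IFNAR1 and IL10RB, at 0.02 (adjusted p 0.937), and both values turned to the other sign under some settings. At 20 ng/ml, IRF9 (2.51) and STAT2 (1.57) rose, 2 of 6, where 3.93% of all genes passed with edgeR.

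**Figure D3:**
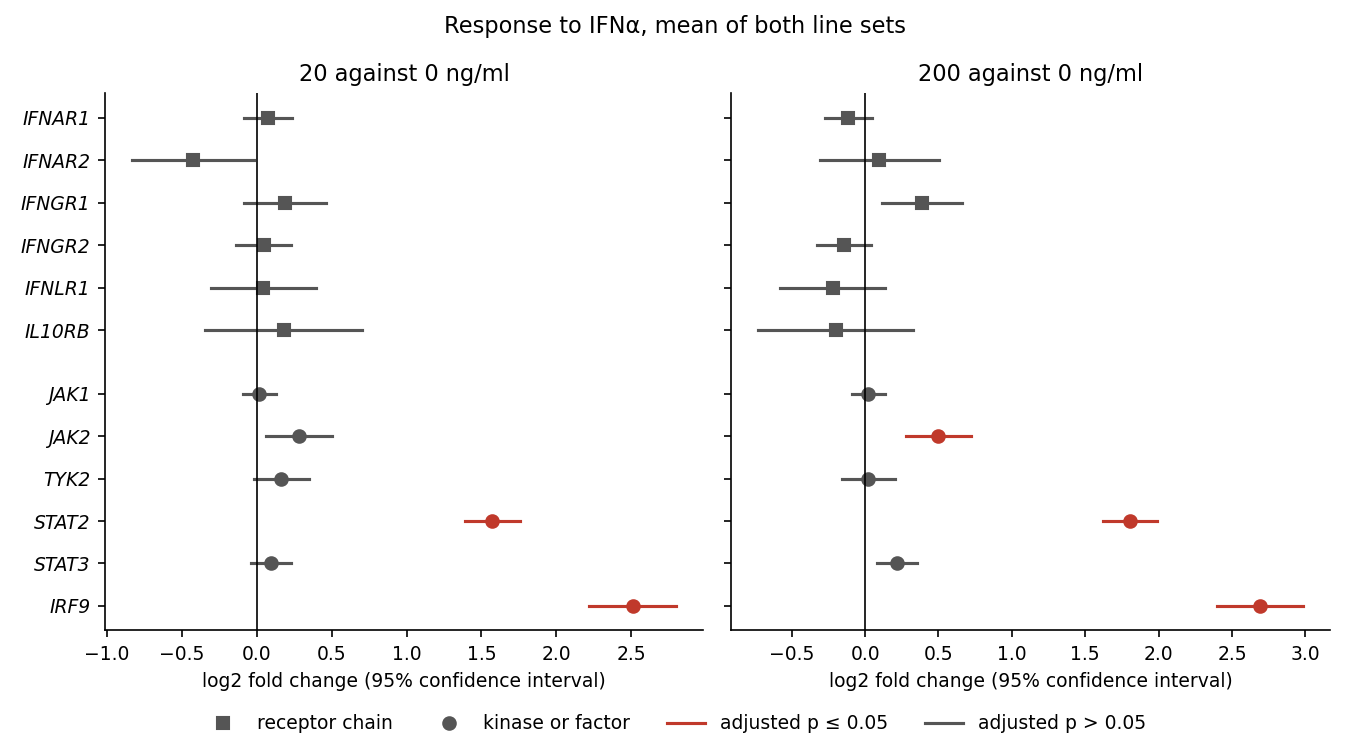
Log2 fold change (points) with 95% confidence interval (lines) at 20 and at 200 against 0 ng/ml IFNα, mean of both line sets, for the receptor chains (squares) and the kinases and factors they act through (circles), red where the adjusted p is at most 0.05. The chains lie between -0.43 and 0.39, while STAT2 and IRF9 lie at 1.57 or above.

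Genes that restrain the receptors moved in part. Of 12, 4 rose and 1 fell at 200 ng/ml, where 9.55% of all tested genes passed. USP18, which binds IFNAR2 and holds type I signalling down, rose by 4.16 on the log2 scale (edgeR adjusted p 1.37e-08) and ISG15, which keeps USP18 stable in human cells, by 4.20. PRKD2 and CSNK1A1, kinases that mark IFNAR1 for removal, rose by 0.50 and 0.29 (adjusted p 0.00563 and 0.0181), the call on CSNK1A1 being lost with limma on TPM (adjusted p 0.155) and in 7 of the 12 fits that each left out a sample. Without the line set in the fit neither these 2 kinases nor PTPN11 passed, while USP18 and ISG15 did. PTPN11, a phosphatase of receptor signalling, fell by 0.48 on the log2 scale. SOCS1 and SOCS3, inhibitors of the Janus kinases, were among the 7 that did not pass. Of the other class II cytokine receptor chains, the family to which all 6 members belong, 4 of 6 were tested and 3 rose. These were IL22RA1 (1.21), IL20RB (0.95) and F3 (0.71), better known as tissue factor. The calls on IL22RA1 and F3 were not kept under every setting, and F3 ranged from 0.36 to 0.74. IL22RA1 and IL20RB pair with other chains to bind IL-22, IL-20 and IL-24. Among 22 interferon genes, IFNE alone was tested (-0.22, adjusted p 0.684), and the other 21 had at most 8 counts in any sample, 17 of them 0 in all.

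IFNGR2, the JAK2-carrying chain for IFNγ, had changes of opposite sign in the line sets. Its level was 50.7 and 52.0 TPM in A1 and A2, 38.7 and 45.4 in B1 and B2, and 30.7 and 35.4 in C1 and C2, so that C lay below B and B below A without overlap. In the other set it was 46.7 and 50.7 TPM in D1 and D2, 63.2 and 59.0 in E1 and E2, and 72.9 and 65.1 in F1 and F2, with E and F both above D. Part of the F level was assigned to transcripts annotated as nonsense-mediated decay and not as coding. IFNGR2-206 was at 17.4 and 22.1 TPM in F1 and F2 and at 0 in D, and IFNGR2-205 at 5.88 and 6.95 against 0.78 and 0.65. The coding IFNGR2-201 was at 45.6 and 13.5 in D, 60.4 and 54.2 in E, and 48.0 and 36.1 in F. IFNGR2-202 was at 0.31 and 36.6 in D, 0.9 and 0 in E, and 1.58 and 0 in F. The part of these forms in the level of IFNGR2 was not tested. In TMM-scaled CPM the gene in F (72.5 and 59.1) also lay above D (58.8 and 55.4), with F2 close to D1. The pattern in TPM was not particular to IFNGR2. At 200 ng/ml IFNAR1, IFNAR2 and IFNLR1 also lay below A in C and above D in F. In TMM-scaled CPM these chains overlapped D in F, and IFNAR2 also overlapped A in C. The share of all genes that separate in this way was not counted. In A-C the log2 fold change of IFNGR2 between C and A was -0.49 (SE 0.12, 95% confidence interval -0.75 to -0.23, edgeR adjusted p 0.0375). It was the 1 member of 6 that passed, where 7.18% of all genes did. At an unadjusted p under 0.05, IFNLR1 and IFNAR1 (-0.24) were added, 3 members in all, where 22.3% of genes were. The call on IFNGR2 was lost with A and C fitted alone (-0.48, adjusted p 0.146) and in 10 of the 12 fits that each left out a sample (adjusted p 0.0558 to 0.197 in these). In D-F it was 0.20 (95% confidence interval -0.05 to 0.46, adjusted p 0.398), and 0 of 6 members passed by all 3 tools, where 5.84% of genes passed with edgeR and 1 member, IFNGR1 (0.53, adjusted p 0.125), and 18.7% of genes had an unadjusted p under 0.05.

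The difference between the line sets in the response to 200 ng/ml was itself tested. For IFNGR2 it was 0.69 on the log2 scale, D-F minus A-C (SE 0.16, 95% confidence interval 0.32 to 1.06, p 0.00198), with an edgeR adjusted p of 0.0691. It passed with DESeq2 (0.67, adjusted p 0.0198) and with limma on TPM (1.14, adjusted p 0.0256), and it stayed between 0.54 and 0.82 when each sample in turn was left out. Limma on TPM also moved the median of this difference over all genes from 0.03 to 0.12. With edgeR, 0 of 6 members passed, where 1.88% of all genes passed, and 2 members and 17.7% of genes had an unadjusted p under 0.05. The other of these was IFNLR1, at 0.94 (95% confidence interval 0.23 to 1.66, adjusted p 0.168). At 20 ng/ml the difference for IFNGR2 was 0.60 (adjusted p 0.204), and 0 of 6 members passed by all 3 tools, where 0.371% of genes passed with edgeR and 2 members and 10.5% of genes had an unadjusted p under 0.05. IFNGR2 overlaps TMEM50B on the other strand, which had 108 to 273 counts, and whether the counting used strand is not given in the sources used here, so reads of the overlap cannot be told apart. TMEM50B had a difference of 0.60 between the line sets at 200 ng/ml (adjusted p 0.299), and its part in the values of IFNGR2 was not tested. The summed TPM of the 3 fibroblast markers was 7.82 and 13.8 in the samples of A against 4.64 and 5.06 in C, and 8.87 and 9.29 in D against 13.2 and 13.5 in F. In the edgeR fits 0 of their 2 tested genes passed at 200 ng/ml in either line set, with COL1A1 at -0.51 in A-C (adjusted p 0.106) and 0.05 in D-F (adjusted p 0.928), and their part in the values of IFNGR2 was not tested.

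IFNLR1, the least abundant chain, was at 3.43 and 4.64 TPM in A, 4.67 and 4.07 in B, and 2.50 and 2.96 in C. It was at 6.24 and 7.03 TPM in D, 7.11 and 9.72 in E, and 10.1 and 7.14 in F. Both samples of C lay below A, and both of F above D in TPM, while in TMM-scaled CPM F (13.7 and 19.6) overlapped D (12.7 and 15.2). As for IFNGR2, the share of all genes that separate in this way was not counted. At 200 ng/ml the log2 fold change was -0.69 in A-C (adjusted p 0.112) and 0.25 in D-F (adjusted p 0.633). IL10RB varied widely within a dose, with 12.5 and 23.4 TPM in C1 and C2 and 22.8 and 35.5 in F1 and F2. In A-C at 20 ng/ml 0 of 6 members passed by all 3 tools, where 1.11% of genes passed with edgeR and IFNAR2 had an unadjusted p under 0.05 (-0.85, adjusted p 0.197), as did 12.3% of genes. This value for IFNAR2 was -0.49 without B1 and -1.34 without B2. In D-F at 20 ng/ml 0 of 6 passed by all 3, where 3.37% of genes did with edgeR, and IFNGR1 (0.43) and IFNGR2 (0.35) had an unadjusted p under 0.05, as did 15.2% of genes.

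Most counts of IL10RB were assigned to the retained intron transcript and not to the coding one. IL10RB-204 had 3057 of the estimated counts over the 12 samples, 65.4% of the gene, and IL10RB-201 had 1434, or 30.7%. By TPM, the share of IL10RB-204 was 34.4% to 79.3% with a median of 67.8%, and that of IL10RB-201 was 19.2% to 64.4% with a median of 21.7%. The lowest shares of IL10RB-204 were 35.3% in C1, 34.4% in D2 and 40.2% in F1, whose replicates C2, D1 and F2 had 78.6%, 69.8% and 72.5%. Both transcripts hold exon 2, as the sequences above show, so reads from shared exons were divided between them by estimate. AP000295.1, a readthrough gene across IFNAR2 and IL10RB, had 0 to 63 counts, most of them in B (24 and 63).

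IFNAR2 counts were split between its forms in ways that changed from replicate to replicate. The long form IFNAR2-202 made up 0% to 59.1% of IFNAR2 TPM (median 29.4%), the short forms IFNAR2-204 and IFNAR2-205 together 21.9% to 71.8% (median 40.3%), and the soluble form IFNAR2-201 0% to 21.04% (median 4.91%). In A1 and A2, which share a line and a dose, the long form was at 51.2% and 19.5%. B1, the sample with the lowest IFNAR2 level, held no count of the long form. IFNAR2-205 had 418 counts in F1 and 1 in F2. F1 had more counts of IFNAR2 than F2 (580 against 400) but a lower level in TPM (27.7 against 31.1), a scale that also depends on the lengths of the forms.

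The extra exon of IFNGR2 was also counted unevenly. IFNGR2-202 took 452 counts in A1 and 578 in D2 but at most 19 in each of the other 10 samples, and IFNGR2-201 was at 280 in A1 and 273 in D2 against 418 to 875 elsewhere. IFNGR2-203 took 288 counts in A2 and 0 in all others. IFNGR2-206, annotated as nonsense-mediated decay, took 111 and 145 counts in F1 and F2, 77 in B2 and at most 27 elsewhere. IFNGR2-205, of the same type, took 36 and 43 in F1 and F2, 48 in B2 and 5 to 12 elsewhere. IFNAR1-201 and IFNGR1-201 were nearly the whole of their genes, at 94.5% to 100% and 80.2% to 98.6% of TPM. IFNLR1-201, of 520 codons, was at 45.4% to 100%, and IFNLR1-202, which skips the exon at chr1:24159052-24159182 and has 244 codons, at 0% to 54.6%.

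**Figure D4:**
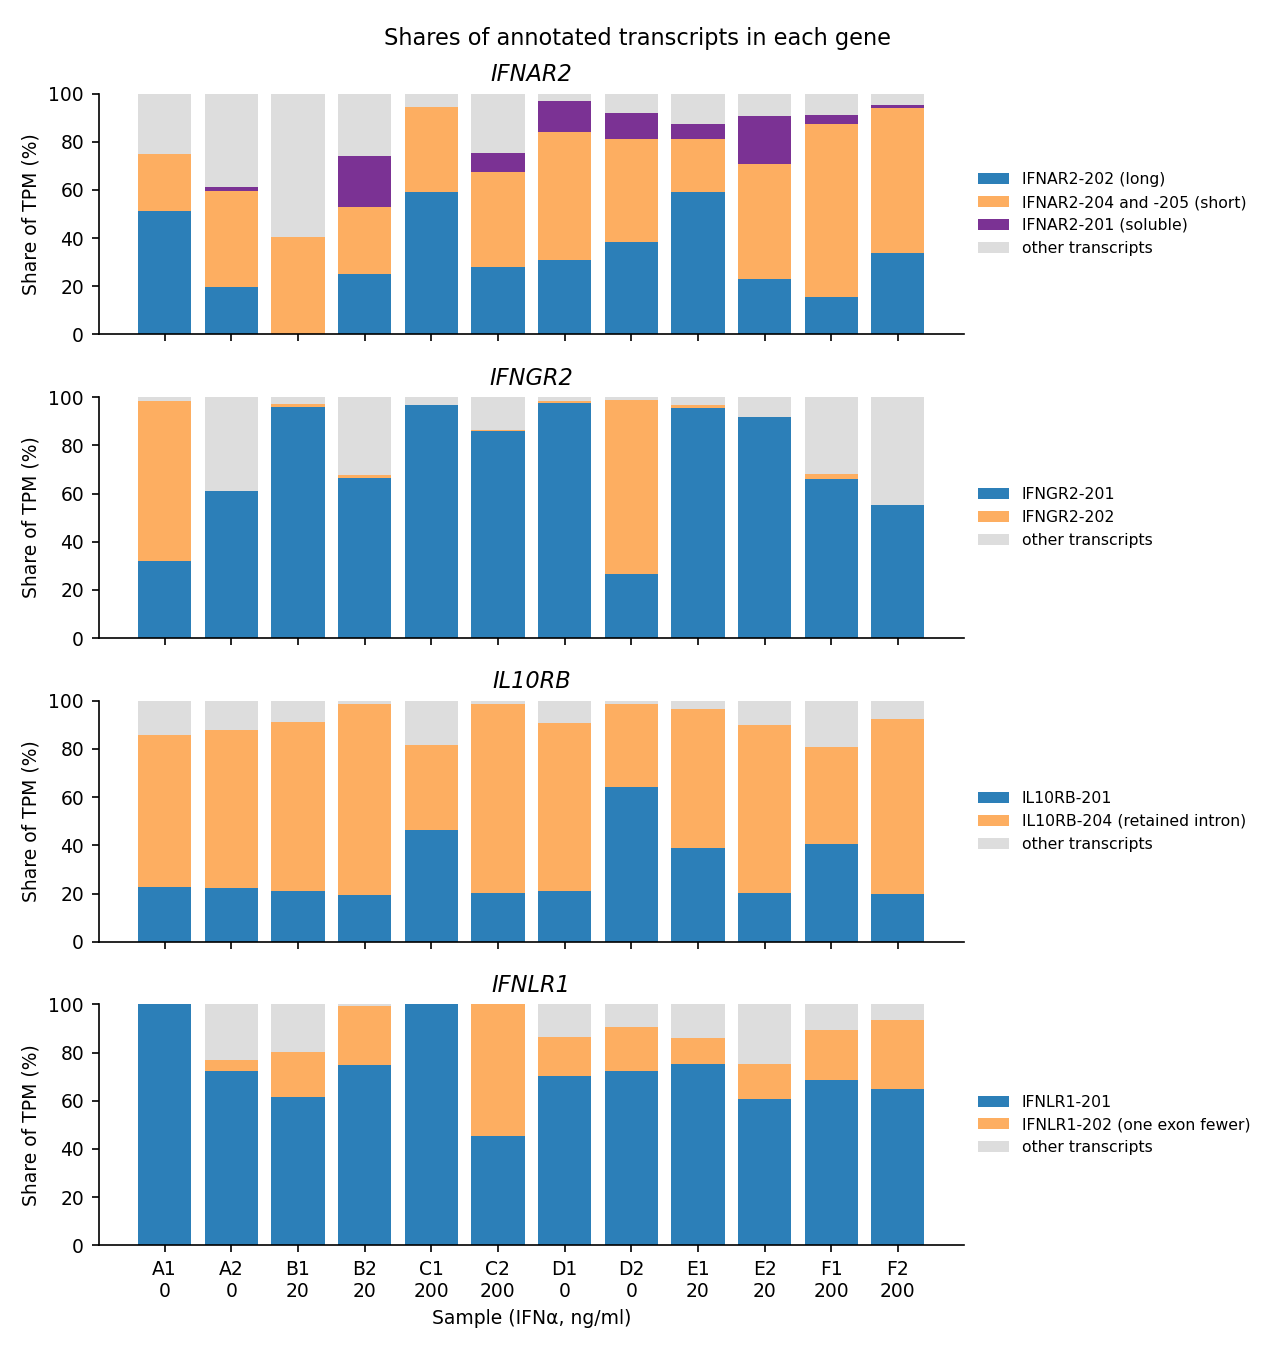
Share of the gene's TPM (percent, stacked to 100) taken by annotated transcripts of IFNAR2, IFNGR2, IL10RB and IFNLR1 in each sample, with the IFNα dose in ng/ml below. Replicates of a letter often differ more than doses do, as for IFNGR2-202 at 66.1% in A1 and 0% in A2.

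Of 11 transcript shares, 0 passed between 200 and 0 ng/ml, and 0 could have done. The test was a two-sided exact permutation test over 36 arrangements of doses within line sets, whose smallest p is 0.0556, and the adjusted p-values were 0.786 or more. The short IFNAR2 forms were at 39.8% of TPM in controls and 51.7% at 200 ng/ml on average, a difference of 11.9 percentage points (exact p 0.167). By counts they were at 47.9% and 55.8%, a difference of 7.87 percentage points (exact p 0.556). In edgeR fits of 75876 transcripts, 19 transcripts of the members were tested. At 200 ng/ml 0 passed, where 0.597% of all transcripts passed, and DESeq2 also passed 0. With edgeR 2 had an unadjusted p under 0.05, as did 8.87% of all transcripts. These were IFNGR2-205 (log2 fold change 1.58, adjusted p 0.433) and IFNGR2-202 (-5.77, adjusted p 0.531). Between untreated D and A 1 passed, IFNGR1-201 (log2 fold change -2.16, SE 0.22, adjusted p 0.00353), where 4.02% of all transcripts passed, and 4 had an unadjusted p under 0.05, as did 17.3% of all transcripts. IL10RB-201 was at 1.64 (95% confidence interval 0.37 to 2.91, adjusted p 0.173).

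By Pearson r of log2 CPM over the 12 samples, which share libraries and depth and fall into the line sets, the genes most like each member were PHTF1 for IFNGR1 (r 0.99), MIDN for IFNAR1 (0.99), SLC8B1 for IFNGR2 (0.96), PPP1R16A for IFNLR1 (0.96), ACOT8 for IFNAR2 (0.92) and TBC1D3L for IL10RB (0.89), out of 12462 genes. No member was among the 3 genes most like another.

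Promoter windows from RefSeq (GRCh38.p14, 250 bases before to 50 after a start) were at hand for 5 members in 7 windows, all but IFNAR2. The interferon-stimulated response element, searched on both strands as a pair of GAAA runs with any 2 bases between them, was in 0 of the 7 windows, and 3.57% of 35116 windows hold it. The GAS element, searched as TTCNNNGAA, which reads the same on both strands, was in 2 of the 7, those of IL10RB and IFNLR1, and 7.66% of all windows hold it. A match or its absence describes these letters in these windows and no more.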

How the data were processed

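RNA of 12 samples was sequenced by the authors on the HiseqXTen platform after rRNA removal with a strand-keeping kit. The submitters' processing notes name Trimmomatic 0.36, HISAT2 2.1.0, StringTie 1.3.3b and the build GRCh38.p10, and the annotation release is not given in the sources used here. Each gene and transcript has an estimated count in the deposited tables, in whole numbers and without scaling for depth. The deposited TPM and FPKM values were scaled by the authors for length and depth, and FPKM was not used. Reads shared by transcripts or overlapping genes are divided by estimate, which moves transcript values more than gene values.

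Counts were fitted with edgeR 4.0.16 (R 4.3.3) after filterByExpr and TMM scaling, with 1 mean for each of the 6 letters. The quasi-likelihood test was used, p-values were adjusted over all features by Benjamini-Hochberg, and a feature passed at an adjusted p of at most 0.05. Standard errors were the log2 fold change over the root of F. TPM was described as deposited and tested in limma 3.58.1 as log2(TPM + 0.1). DESeq2 1.42.0, other size factors, no filter, subsets of samples, a fit without line set and a replicate block were alternatives. The scripts were tested on simulated data. Tables and figures were made in Python 3.11.15 (pandas 2.3.3, numpy 2.4.6, matplotlib 3.10.9). Exons and sequences came from GENCODE 29 on GRCh38.

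Every member is named, as are neighbours within 500 kb that passed, genes of the pathway lists that passed at 200 ng/ml or whose role next to the chains called for it, and the gene with the highest r to each member. A pathway gene is not reported here. Members and lists were chosen with earlier results of these data known. Depth was 10517448 to 16056734 counts per sample, and 2 samples per letter limit the precision.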

Additional observations from a re-analysis of the deposited data

Results flagged for a closer look

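With edgeR, no receptor chain passed the test of a difference between the line sets in its response. Of the pathway genes, 3 did at 200 ng/ml, each with the larger fold in D-F, and 1.88% of all genes passed. So did the interferon-stimulated genes IFI6 (2.18), MX1 (1.28), IFIT1 (1.12) and OAS1 (0.99), and CD68 (1.89). In log2 units, D-F minus A-C, the difference was 2.81 for ISG15 (edgeR adjusted p 0.00416), 1.24 for USP18 (0.0252) and 1.01 for F3 (0.0119). The folds at 200 ng/ml were 48.6 in D-F and 6.94 in A-C for ISG15, 27.6 and 11.7 for USP18, and 2.32 and 1.16 for F3. At 20 ng/ml the difference for ISG15 was 2.13 (adjusted p 0.0203). This call was lost with the replicate block (adjusted p 0.0871), with the compared groups alone (0.0591) and in 5 of 12 fits that left out a sample. At 200 ng/ml that on USP18 was lost with the block (0.062), with the groups alone (0.0506) and in 6 of 12 such fits, and that on F3 in 2 of 12. Untreated levels of these genes also differed between the line sets, with log2 fold changes of D against A of -2.14 for ISG15, -1.45 for USP18 and -3.03 for F3. Those of IFI6, MX1, IFIT1 and OAS1 lay between -2.25 and -0.87, and that of CD68 at -0.83, all of them passing with edgeR. The part that the untreated levels play in the responses was not tested.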

How the results depend on the processing

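Of 1840 values under alternatives, 37 over 17 results changed sign, none of them passing a test. DESeq2 passed 1 member at 200 ng/ml where edgeR passed 0, and DESeq2 and limma each passed 1 for the difference between line sets at 200 ng/ml where edgeR passed 0. In A-C at 200 ng/ml the count of 1 became 0 with the replicate block (IFNGR2 at -0.49, adjusted p 0.0528) and with the compared groups alone, and 0 to 1 when samples were left out in turn. Between untreated line sets the count of member transcripts, 1, became 0 with the replicate block, 4 with DESeq2 and 1 to 2 when samples were left out. Deviations of samples with the same number correlated at -0.05 to 0.06, so the numbers were not taken as pairs. Without a filter, JAK1 at 200 ng/ml was at -0.00257, TYK2 at -0.00249 and IFNAR1 in D-F at -0.00934. With limma on TPM, TYK2 at 200 ng/ml was at -0.14, IFNAR2 between untreated line sets at -0.10, and, at 20 ng/ml, IFNGR1 and IFNLR1 in A-C at 0.0345 and 0.125 and IFNAR2 and IL10RB in D-F at 0.0882 and 0.0556. IL10RB in A-C at 200 ng/ml was at 0.022 with other size factors, 0.011 with the compared groups alone and 0.025 with DESeq2. The share of IL10RB-201 differed by 0.669 percentage points by counts.

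Leaving out samples in turn gave, at 200 ng/ml, -0.0654 to 0.22 for IFNAR2, -0.50 to 0.0080 for IL10RB, -0.0094 to 0.0462 for JAK1 and -0.0425 to 0.073 for TYK2. It gave -0.0215 to 0.11 for IFNLR1 at 20 ng/ml and -0.0185 to 0.12 for IFNAR2 between untreated line sets. In A-C it gave -0.60 to 0.42 for IL10RB at 200 and -0.28 to 0.14 for IFNGR1 at 20 ng/ml. In D-F at 200 ng/ml it gave -0.0651 to 0.0678 for IFNAR1, -0.064 to 0.50 for IFNAR2 and -0.0332 to 0.47 for IFNLR1, and at 20 ng/ml -0.11 to 0.0785 for IFNAR2 and -0.14 to 0.10 for IL10RB. The difference between line sets was -0.83 to 0.20 for IL10RB at 200 and -0.0366 to 0.11 for IFNAR1 at 20 ng/ml. The causes were not tested.

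Counts over all genes moved more. At 200 ng/ml 1905 genes passed, 993 of them higher, against 1110 (712 higher) with limma, 118 (106) without line set in the fit and 1106 to 1962 when samples were left out. At 20 ng/ml 784 (465 higher) passed, against 449 (350), 73 (70) and 478 to 849. In A-C at 200 ng/ml 1432 (714 higher) became 803 with the block, 210 (179) with the groups alone, 896 with limma and 388 to 1343 when samples were left out, and in D-F 1164 (687) became 701 (550) with limma and 561 to 1229. The difference at 200 ng/ml, 375 (214 higher), became 245 without a filter, 88 with the block, 125 with the groups alone, 185 (144) with limma, 942 with DESeq2 and 88 to 520, and that at 20 ng/ml, 74 (47), became 35 (27), 41, 43 (34), 333 (172) and 32 to 94 under the last 5. For 200 against 20 ng/ml 27 (18) became 0 with the block or without line set, 13 (6) with limma, 167 with DESeq2 and 9 to 122. At 20 ng/ml 221 in A-C became 513 with DESeq2 and 133 to 240, and 672 (428) in D-F became 407 with the groups alone, 397 (332) with limma and 358 to 704. Transcripts passing at 200 ng/ml, 453, became 270 without a filter, 93 with the block, 3027 with DESeq2 and 211 to 643, and between line sets 3051 became 1620, 310, 9496 and 709 to 2725. Limma moved the median of all genes between line sets from 0.01 to 0.14.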
